A study of Mus musculus with 3 samples.

Results

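The genes described here encode the proteasome and its closest helpers: every protein-coding row of the deposited count table whose symbol is Psma, Psmb, Psmc, Psmd, Psme, Psmf or Psmg followed by a number. This rule took 48 of 56748 genes in the table, and 46 of the 48 reached 1 CPM (a read count scaled to the size of its library) in at least 1 library. RNA sequencing had been done on adipose fibroblasts of wild-type (WT) mice fed a high-fat diet (HFD), isolated from visceral fat, and the 3 libraries, 1 per condition, are vehicle (labelled as the control), mouse oncostatin M (Osm) and human TGF-beta1, a transforming growth factor, both as recombinant protein at 3 ng/mL for 24 h. No time is given for vehicle. The source was the stromal vascular fraction, what is left of fat tissue without its adipocytes, and the cells taken were negative for CD45, CD31 and Ter119 after magnetic sorting, and the labels do not say how many mice were pooled. With 1 library per condition there is no replicate check, so no difference below has a test or a p-value.

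The proteasome degrades proteins tagged with ubiquitin. Its 20S core is a barrel of stacked rings, the outer ones of alpha subunits (Psma genes) and the inner ones of beta subunits (Psmb genes), of which beta1, beta2 and beta5 cut peptide bonds. The 19S regulatory particle, with ATPases (Psmc) and non-ATPase subunits (Psmd), recognises the tagged protein, removes the ubiquitin and unfolds the chain. Under interferon, cells can replace the catalytic subunits Psmb6, Psmb7 and Psmb5 with the immune forms Psmb9, Psmb10 and Psmb8, and add the activator PA28 (Psme1 and Psme2), which changes the peptides handed to MHC class I. In fibroblasts the constitutive form is the usual one, and transcription of its genes is known to be raised by Nfe2l1 when degradation capacity falls short.

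The libraries held between 17319872 and 18533741 counted reads, so the counting error of an abundant subunit is small. Fibroblast genes were abundant, with Col1a2 at 4302, 4032 and 5720 CPM and Pdgfra at 1129, 1122 and 697.5 CPM (vehicle, Osm and TGF-beta1, the order used throughout). Among 15 leukocyte markers, Cd52, Itgam and Cd3e had no count in any library, while Ptprc, which encodes CD45, had no count with vehicle or TGF-beta1 and 2 counts with Osm. Others were detected, the most abundant with vehicle being Cd68 and Csf1r at 8.91 and 8.48 CPM. A count of 0 allows a level of up to 0.163, 0.173 and 0.163 CPM in the 3 libraries, for counting error only. Pecam1, which encodes CD31, was at 0.109, 0.173 and 0.271 CPM, and all 6 erythroid markers had no count. The endothelial markers Tek and Vwf were more abundant, at 48.5, 38.9 and 34.4 CPM and at 6.20, 4.84 and 1.57 CPM. A gene is called higher or lower below when its CPM differed at least 1.2-fold and an exact 95% interval around that fold, taken from both read counts, excluded 1. This interval, given in parentheses after each ratio, compares 2 libraries, covers counting error only and may be too narrow because repeat reads of 1 molecule cannot be told apart.

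With TGF-beta1 the constitutive proteasome was higher almost throughout, by a similar and modest factor. Of the 31 subunits of the 20S core and the 19S particle, all lay above vehicle, and 27 were called higher. The range ran from 1.12-fold for Psmb1 to 1.65-fold for Psmb2, with a median log2 ratio of 0.35. Over the 46 measured Psm genes, 32 (69.6%) were called higher, against 18.0% of all 13712 genes tested and 20.4% of protein-coding genes at 10 CPM or more. Another 5 (10.9%) were called lower, against 17.7% and 16.8%. The median log2 ratio was 0.34 for the Psm genes and 0.01 for all genes tested. No Psm gene was called at least 2-fold higher, where 2.27% of all genes tested and 0.965% of the abundant protein-coding genes were.

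**Figure D1:**
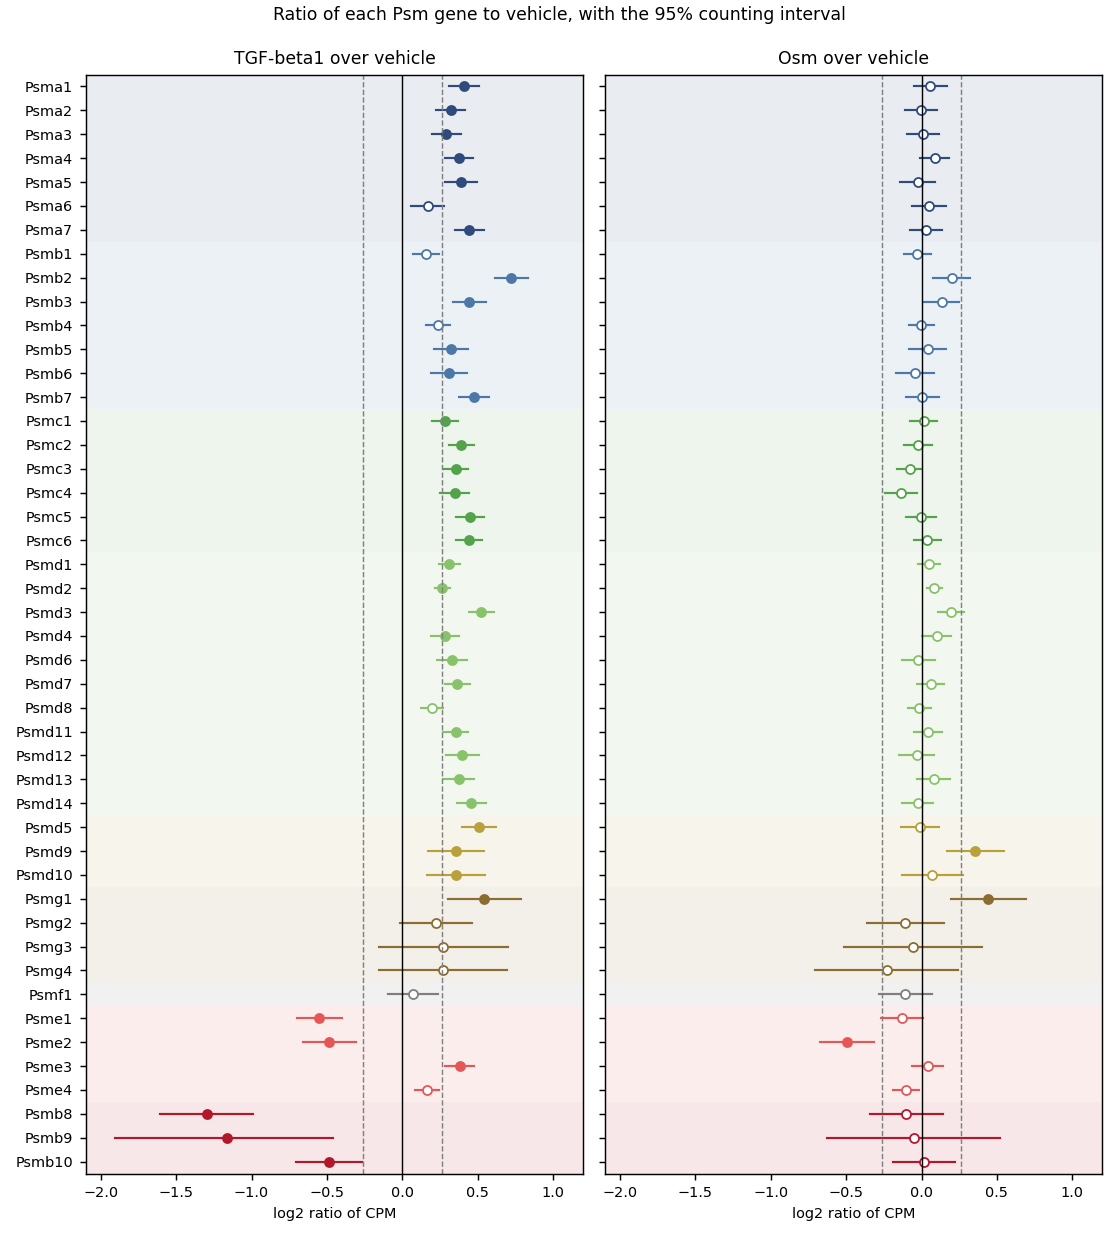
Log2 ratio of CPM of each of the 46 measured Psm genes for TGF-beta1 over vehicle (left) and Osm over vehicle (right), 1 library each. Bars are exact 95% counting intervals, filled points are called at 1.2-fold (dashed lines), and colours mark subunit groups, from the 20S alpha ring at the top to the immune beta subunits at the bottom. With TGF-beta1 the 31 subunits of the core and the 19S particle lie between 0.16 and 0.72 and the 3 immune beta subunits between -1.29 and -0.48.

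The alpha ring, which forms the gate of the core, had 6 of its 7 measured subunits called higher with TGF-beta1. Psma7 was at 80.9, 82.6 and 110.0 CPM with vehicle, Osm and TGF-beta1, with TGF-beta1 1.36-fold above vehicle (1.27 to 1.46). Psma6 was at 72.9, 75.4 and 81.9 CPM in the same order, 1.12-fold above vehicle with TGF-beta1 (1.04 to 1.21) and short of the call. For both, the TGF-beta1 library was the highest and the other two lay close together. The other 5 subunits were between 1.23-fold (Psma3) and 1.33-fold (Psma1). Psma8, the alpha subunit of the testis proteasome, had 0, 2 and 8 counts and was not tested.

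The constitutive beta ring had 5 of 7 subunits called higher with TGF-beta1, the catalytic ones among them. Psmb5, whose product cuts after hydrophobic residues (beta5), was at 61.3, 63.0 and 76.6 CPM with vehicle, Osm and TGF-beta1, 1.25-fold above vehicle with TGF-beta1 (1.15 to 1.35). Psmb6, which cuts after acidic residues (beta1), was at 57.8, 56.0 and 71.6 CPM, 1.24-fold above vehicle (1.14 to 1.35). Psmb7, which cuts after basic residues (beta2), was at 75.6, 75.9 and 105.1 CPM, 1.39-fold above vehicle (1.30 to 1.49). All 3 catalytic subunits were thus near their vehicle level with Osm and above it with TGF-beta1. Psmb7 overlaps Nek6 on the opposite strand. Nek6 was at 126.0, 129.0 and 105.9 CPM, so it was lower where Psmb7 was higher. Whether reads were counted by strand is not given, and without strand the reads of overlapping genes cannot be told apart.

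The non-catalytic Psmb2 stood out at the top of all Psm genes. It was at 59.0, 67.7 and 97.3 CPM with vehicle, Osm and TGF-beta1. The TGF-beta1 level was 1.65-fold that of vehicle (1.53 to 1.78). It was the only Psm gene past 1.5-fold upward. Psmb3 was 1.36-fold above vehicle (1.26 to 1.47), while Psmb4 (1.18-fold, 1.12 to 1.24) and Psmb1 (1.12-fold, 1.05 to 1.19) did not reach the call, with intervals above 1.

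In the 19S particle all 6 ATPases, which unfold the substrate, were called higher with TGF-beta1, between 1.22-fold for Psmc1 and 1.37-fold for Psmc5. Psmc3 (1.28-fold, 1.21 to 1.35) is uncertain, because Slc39a13 overlaps it on the opposite strand. Slc39a13 was at 99.7, 97.9 and 119.1 CPM with vehicle, Osm and TGF-beta1, so it too was highest with TGF-beta1. Psmc5 was at 88.1, 87.9 and 120.3 CPM with vehicle, Osm and TGF-beta1. Of the 11 non-ATPase subunits 10 were called higher. Psmd3, a scaffold subunit of the lid, was at 112.0, 128.0 and 161.0 CPM, 1.44-fold above vehicle with TGF-beta1 (1.36 to 1.52). Psmd14, the enzyme that strips ubiquitin from the substrate, was at 84.0, 82.5 and 115.4 CPM, 1.37-fold above vehicle (1.29 to 1.47). In each of these the TGF-beta1 library was the highest of the 3. Psmd2, a scaffold of the base with the highest FPKM of all members, was at 328.4, 348.3 and 394.4 CPM and lay just past the threshold (1.201-fold, 1.16 to 1.24), while Psmd8 lay below it (1.15-fold, 1.09 to 1.21).

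The immune subunits went the other way with TGF-beta1. Psmb8 (beta5i; chromosome 17, 34416695 to 34420428 in mm39) was at 16.6, 15.5 and 6.78 CPM with vehicle, Osm and TGF-beta1. It was 2.45-fold lower with TGF-beta1 (1.99 to 3.04), the lowest ratio of all Psm genes. Psmb9 (beta1i; chromosome 17, 34400961 to 34406738) was at 3.04, 2.94 and 1.36 CPM, 2.24-fold lower with TGF-beta1 (1.38 to 3.75), on 56, 51 and 25 counts. Psmb10 (beta2i; chromosome 8, 106662367 to 106665076) was at 22.4, 22.7 and 16.1 CPM, 1.40-fold lower (1.201 to 1.63). For all 3 the vehicle and Osm libraries were about 1.07-fold apart or closer and the TGF-beta1 library was below both. Psmb8 and Psmb9 were the only Psm genes called at least 2-fold lower, 2 of 46, where 4.79% of all genes tested and 2.37% of the abundant protein-coding genes were. Psmb11, the thymus beta5 subunit, had no count in any library.

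Psmb9 and Psmb8 lie 9956 bases apart on chromosome 17. Between them lies Tap1, which encodes a subunit of the pump that loads peptides into the endoplasmic reticulum. Tap1 overlaps Psmb9 by 212 bases on the opposite strand, at the start of both genes, which run away from each other. It drew more reads, at 18.7, 19.1 and 14.3 CPM, so the Psmb9 value is uncertain. Psmb8 and Psmb10 are overlapped on the opposite strand by the lncRNA genes Gm20496 (0.217, 0.807 and 0.163 CPM) and Gm16156 (2.50, 2.65 and 1.36 CPM).

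The activators of the core divided in the same way. Psme1, the PA28 alpha subunit (chromosome 14, 55815580 to 55818986), was at 49.6, 45.3 and 33.9 CPM with vehicle, Osm and TGF-beta1, 1.46-fold lower with TGF-beta1 (1.32 to 1.62). Psme2, the PA28 beta subunit 5911 bases away, was at 34.6, 24.5 and 24.7 CPM, 1.40-fold lower with TGF-beta1 (1.24 to 1.58). Psme3, which forms the nuclear PA28 gamma and is not tied to interferon, was at 83.6, 86.1 and 108.9 CPM, 1.30-fold higher (1.22 to 1.39). Both genes of the interferon-linked activator were thus called lower and the gamma gene higher, but the Psme2 call was lost once its copy was added, as given below. Psme1 overlaps Emc9 (6.47, 7.72 and 5.81 CPM) by 14 bases on the opposite strand. Psme4, which encodes PA200, was 1.12-fold above vehicle (1.06 to 1.18), short of the call.

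Psme2 is uncertain, because Psme2b, a near-identical copy on chromosome 11, holds 54.9% of its 50-base windows. Psme2b had 311 counts with vehicle, 481 with Osm and 353 with TGF-beta1, where Psme2 had 637, 426 and 456. In the Osm library the copy was thus higher where Psme2 was lower. With both summed, the level was 51.5, 52.3 and 43.9 CPM, 1.01-fold above vehicle with Osm (0.925 to 1.11) and 1.17-fold lower with TGF-beta1 (1.07 to 1.29), so neither Psme2 call was kept. The same sum was made for 9 other Psm genes that share 50-base windows with another gene, some of them few. Psme1 shares 11.3% of its windows, and the sum left its counts unchanged. Genes that overlap a Psm gene were left out of these sums. No call changed in the 9 genes. Among these, Psma3, whose processed pseudogene Gm13835 had 674, 612 and 901 counts, was 1.26-fold above vehicle with TGF-beta1 (1.19 to 1.33) with the copy and 1.23-fold (1.14 to 1.31) without.

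Set against each other per length, the immune forms were the minor ones in every library and took a smaller share with TGF-beta1. At the beta5 site Psmb8 was at 4.92, 4.57 and 2.01 FPKM (fragments scaled to gene length and depth, as deposited) and Psmb5 at 68.2, 69.9 and 85.4 FPKM with vehicle, Osm and TGF-beta1. Per length, Psmb5 was thus 13.9-fold, 15.3-fold and 42.5-fold above its immune form. This ratio rests on the deposited gene lengths, 899 bases for Psmb5 and 3381 for Psmb8, and without them Psmb8 made up 21.3%, 19.7% and 8.13% of the counts of the pair. At beta1 Psmb9 was at 0.832, 0.800 and 0.371 FPKM and Psmb6 at 30.9, 29.8 and 38.3 FPKM. At beta2 the levels per length were closest, with Psmb10 at 13.2, 13.3 and 9.44 FPKM and Psmb7 at 22.1, 22.1 and 30.8 FPKM. This too rests on the deposited lengths, 3421 bases for Psmb7 and 1705 for Psmb10. Without them Psmb10 made up 22.9%, 23.0% and 13.2% of the counts of its pair, with vehicle close to the beta5 share. Summed over the sites, the immune forms made up 13.5%, 13.3% and 7.11% of the FPKM of the 6 genes. As a share of counts they were 17.8% with vehicle (16.7% to 18.96%, exact Clopper-Pearson 95% interval), 17.4% with Osm (16.3% to 18.6%) and 8.72% with TGF-beta1 (7.96% to 9.52%). The intervals of vehicle and Osm overlap and that of TGF-beta1 lies below both.

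**Figure D2:**
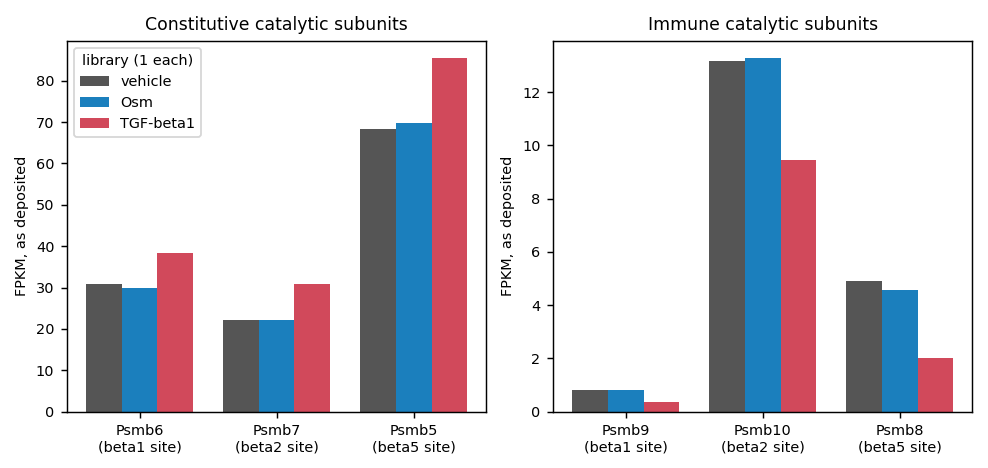
FPKM, as deposited, of the constitutive (left) and immune (right) catalytic subunit of each site with vehicle, Osm and TGF-beta1, 1 library per bar and therefore without error bars; the 2 panels have different scales. The TGF-beta1 bar is the tallest at each constitutive site and the shortest at each immune site, with Psmb8 at 4.92, 4.57 and 2.01 FPKM.

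The immune proteasome is also the form that leukocytes carry. The summed level of the 15 leukocyte markers was 19.6, 16.5 and 15.5 CPM with vehicle, Osm and TGF-beta1, most of it Cd68 (8.91, 6.68 and 3.69 CPM) and Csf1r (8.48, 8.41 and 10.2 CPM). Cd68 was 2.42-fold lower with TGF-beta1 (1.81 to 3.25), and the part of this in the immune subunits was not tested. The summed endothelial markers were 56.6, 45.6 and 37.9 CPM, mostly Tek. All 3 endothelial markers tested were called lower with TGF-beta1, Vwf 3.94-fold (2.60 to 6.14). Fewer cells of a type and less RNA per cell cannot be told apart in these bulk libraries.

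The start regions of the genes with opposite directions are shown because these subunits occupy the same sites or the same complex. RefSeq sequences (build GRCm38.p6, an earlier build than the mm39 positions above) from 250 bases before to 50 after the start were found for 40 of the 48 genes, in 43 windows. They were searched on both strands for CCAAT, the NF-Y box, TGACNNNGC, the core of the element bound by Nfe2l1 and Nfe2l2, TTCNNNGAA, the core of a Stat site, and the core of an interferon-response element (GAAA and GAAA, 2 bases apart). Motifs were allowed to overlap each other. Capitals mark any match, and each of the 5 windows shown holds one. Psmb10 (1 window) and Psme2 (2 windows), which were also called lower with TGF-beta1, held no match to any of these motifs and are not shown. Psmb7 had no window.
Psmb5 promoter (chr14:54617946-54618245, - strand): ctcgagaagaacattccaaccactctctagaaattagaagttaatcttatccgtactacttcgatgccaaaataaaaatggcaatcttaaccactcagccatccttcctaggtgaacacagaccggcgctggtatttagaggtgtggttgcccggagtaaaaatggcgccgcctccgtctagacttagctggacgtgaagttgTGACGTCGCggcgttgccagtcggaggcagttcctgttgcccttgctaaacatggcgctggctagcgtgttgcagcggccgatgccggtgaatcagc
Psmb8 promoter (chr17:34197945-34198244, + strand): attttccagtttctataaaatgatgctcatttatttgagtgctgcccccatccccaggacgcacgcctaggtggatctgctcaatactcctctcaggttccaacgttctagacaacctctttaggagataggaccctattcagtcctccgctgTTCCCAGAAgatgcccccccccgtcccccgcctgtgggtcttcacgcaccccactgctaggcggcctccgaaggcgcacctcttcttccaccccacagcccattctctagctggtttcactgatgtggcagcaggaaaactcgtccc
Psmb6 promoter (chr11:70525107-70525406, + strand): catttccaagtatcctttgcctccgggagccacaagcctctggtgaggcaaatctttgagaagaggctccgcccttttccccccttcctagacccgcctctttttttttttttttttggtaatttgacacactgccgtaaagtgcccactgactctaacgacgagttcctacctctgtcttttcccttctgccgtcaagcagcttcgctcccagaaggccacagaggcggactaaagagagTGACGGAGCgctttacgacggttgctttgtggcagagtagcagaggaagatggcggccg
Psmb9 promoter (chr17:34187281-34187580, - strand): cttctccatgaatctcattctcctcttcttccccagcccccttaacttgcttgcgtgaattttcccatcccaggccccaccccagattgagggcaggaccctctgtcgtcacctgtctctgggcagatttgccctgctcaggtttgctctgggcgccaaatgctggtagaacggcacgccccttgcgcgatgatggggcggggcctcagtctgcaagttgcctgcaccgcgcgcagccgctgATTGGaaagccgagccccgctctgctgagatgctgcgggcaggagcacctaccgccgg
Psme1 promoter (chr14:55578244-55578543, + strand): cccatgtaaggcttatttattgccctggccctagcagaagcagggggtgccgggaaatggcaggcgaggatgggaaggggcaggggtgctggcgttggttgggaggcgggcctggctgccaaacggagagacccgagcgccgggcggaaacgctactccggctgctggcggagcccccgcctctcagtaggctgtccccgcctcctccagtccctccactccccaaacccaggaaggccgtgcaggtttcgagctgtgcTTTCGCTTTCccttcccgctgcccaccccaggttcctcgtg

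Psmb5 and Psmb6 each hold 1 TGACNNNGC match, 47 and 9 bases before the start, Psmb8 a TTCNNNGAA match 97 bases before it, Psmb9 a CCAAT match on the reverse strand and Psme1 a reverse-strand match to the interferon-response core just after the start. Over the 43 Psm windows, TGACNNNGC was found in 6 (14.0%), against 12.4% of all 32851 windows of this length, and CCAAT in 14 (32.6%), against 37.4%. TTCNNNGAA was in 3 (6.98%), against 8.30%, and the interferon-response core in 5 (11.6%), against 3.44%. The 5 genes with this core were Psmb3, Psmd4, Psmd9, Psme1 and Psmg4, of which Psme1 was lower with TGF-beta1 and the first 3 higher. The 6 genes with TGACNNNGC were Psmb5, Psmb6, Psmc6, Psmd9, Psmd12 and Psme4, all above vehicle with TGF-beta1, as 41 of the 46 measured Psm genes were. TGACNNNGC was in 4 of 27 windows (14.8%) of the constitutive core and 19S genes, near the 12.4% of all windows. It was in 0 of the 6 windows of Psmb8, Psmb9, Psmb10, Psme1 and Psme2. So few windows cannot tell a share of 0 from that of all windows.

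The chaperones that put the proteasome together were measured at lower levels. Psmg1, which with Psmg2 assembles the alpha ring, was at 12.9, 17.5 and 18.8 CPM with vehicle, Osm and TGF-beta1. It was 1.36-fold above vehicle with Osm (1.14 to 1.62) and 1.46-fold with TGF-beta1 (1.23 to 1.73), so both treated libraries lay above vehicle. Its partner Psmg2 was at 14.8, 13.7 and 17.3 CPM, and its ratios to vehicle were within counting error. Psmg3 and Psmg4, the second pair of chaperones, were at 4.67, 4.49 and 5.64 CPM and at 4.73, 4.03 and 5.70 CPM, where a difference of 1.2-fold from vehicle was not detectable at this depth. Of the chaperones of the 19S base, Psmd5 was at 59.1, 58.8 and 84.0 CPM, 1.42-fold above vehicle with TGF-beta1 (1.31 to 1.54). Psmd9 was at 22.8, 29.2 and 29.2 CPM, 1.28-fold above vehicle with either ligand (1.12 to 1.46 in both). Psmd10, also known as gankyrin, was at 22.0, 23.0 and 28.1 CPM, 1.28-fold above vehicle with TGF-beta1 (1.12 to 1.46). All 3 base chaperones were called higher with TGF-beta1. Psmf1, which encodes the regulator PI31, was at 31.4, 29.1 and 33.0 CPM and was not called in either comparison.

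With Osm the Psm genes stayed near vehicle. Their median log2 ratio was 0.00, the same as that of all genes tested. Psmg1 and Psmd9 were called higher, 2 of 46 (4.35%) against 4.92% of all genes tested and 3.29% of protein-coding genes at 10 CPM or more. Psme2 was called lower (1.41-fold, 1.25 to 1.598), 1 of 46 (2.17%) against 4.67% and 3.59%, with the uncertainty given above. No Psm gene was called at 2-fold, where 0.948% of all genes tested (0.0439% of the abundant protein-coding genes) were called higher and 0.649% (0.0549%) lower. None of the 31 subunits of the core and the 19S particle was called at 1.2-fold. Their ratios ran from 1.10-fold lower for Psmc4 (1.02 to 1.18) to 1.15-fold higher for Psmb2 (1.06 to 1.25), followed by Psmd3 at 1.14-fold (1.08 to 1.21) and Psmb3 at 1.10-fold (1.01 to 1.19). Both Psmb2 and Psmd3 were also among the 5 highest with TGF-beta1, but the comparisons share the vehicle library. Psmb8, Psmb9 and Psmb10 were 1.07-fold lower (0.908 to 1.27), 1.04-fold lower (0.696 to 1.54) and 1.01-fold higher (0.879 to 1.16) with Osm.

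In the direct comparison of Osm with TGF-beta1, which reuses the same libraries, 31 of 46 Psm genes were called lower with Osm (67.4%, against 17.4% of all genes tested and 19.7% of the abundant protein-coding genes) and 4 higher (8.70%, against 18.5% and 17.2%). The 4 were Psmb8 (2.29-fold, 1.84 to 2.85), Psmb9 (2.17-fold, 1.32 to 3.65), Psmb10 (1.41-fold, 1.21 to 1.65) and Psme1 (1.34-fold, 1.201 to 1.49). Psmb8 and Psmb9 were past 2-fold, where 5.08% of all genes tested and 2.28% of the abundant protein-coding genes were called higher. None was called at least 2-fold lower, where 2.42% and 1.10% were. The lowest was Psmb2, 1.44-fold lower with Osm (1.33 to 1.55), followed by Psmd5 (1.43-fold, 1.32 to 1.55) and Psmg4 (1.41-fold, 1.03 to 1.94), and then by Psmd14 and Psmc4, both 1.40-fold lower. Psmd9, and Psme2 counted without its copy, were alike in both treated libraries and did not differ between them beyond counting error. For Psme2 this rests on leaving out Psme2b. Once that copy was added, the Osm library was the higher of the pair, at 52.3 CPM, against 43.9 CPM for TGF-beta1. The number of Psm genes called higher with Osm stayed at 4 with copies added.

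Levels per length differed among subunits that the complex holds in equal number. In the vehicle library the 14 constitutive core subunits ran from 21.1 FPKM for Psma3 to 68.3 FPKM for Psmb4, 3.24-fold apart, with a median of 29.6 FPKM. The 17 subunits of the 19S particle ran from 16.8 FPKM for Psmd11 to 81.4 FPKM for Psmd2, with a median of 31.2 FPKM. The core and the particle thus had similar medians, which was also so with Osm (30.4 and 31.9 FPKM) and TGF-beta1 (38.5 and 41.0 FPKM). The spread among subunits stayed much the same, with a standard deviation of log2 FPKM over the core subunits of 0.62, 0.64 and 0.63 with vehicle, Osm and TGF-beta1. The 20S assembly chaperones were lower, with a vehicle median of 8.52 FPKM. Gene length here is that of the deposited gene model, so a gene whose main transcript is shorter than its model has an FPKM that is too low.

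**Figure D3:**
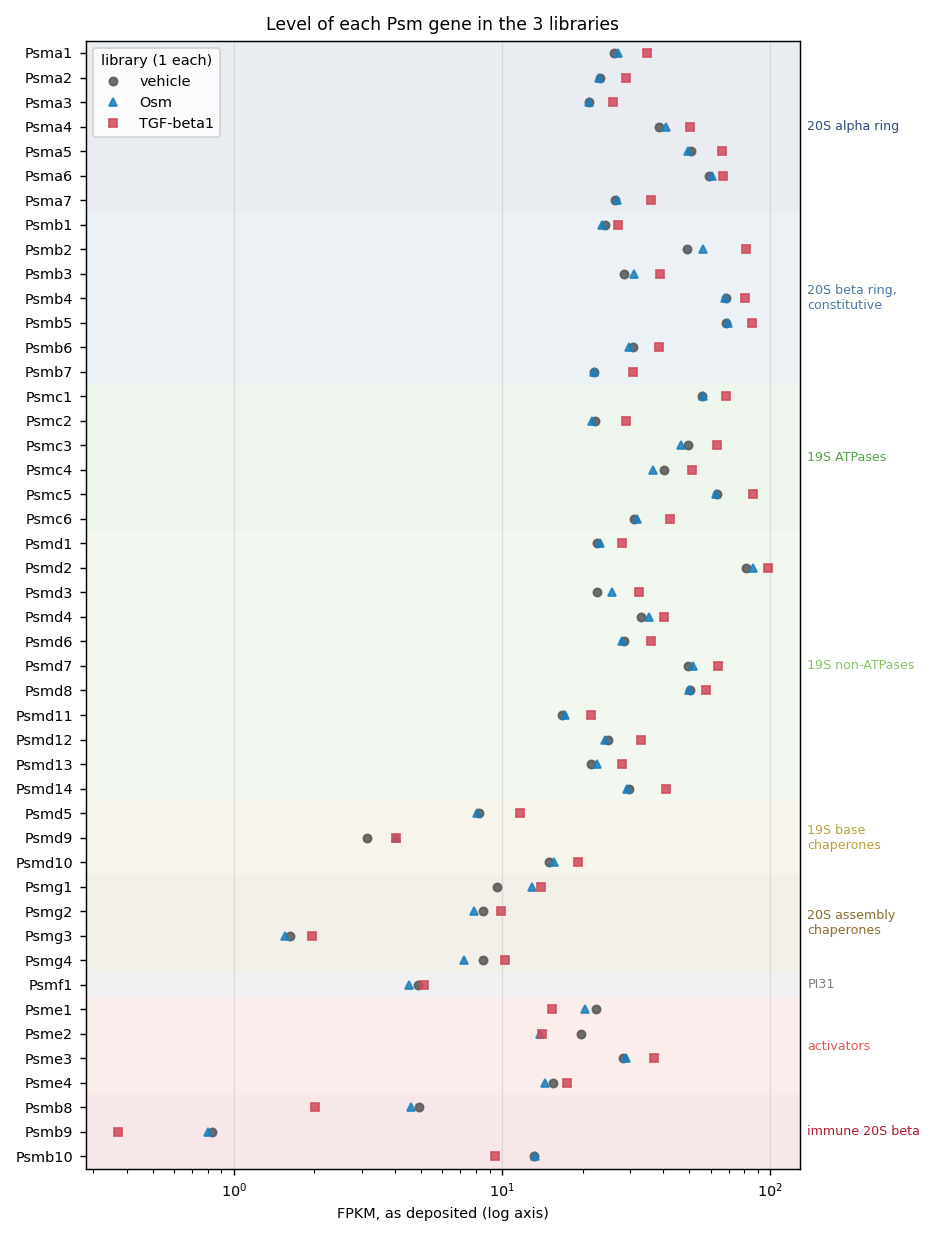
FPKM, as deposited (log axis), of each of the 46 measured Psm genes in the vehicle (circles), Osm (triangles) and TGF-beta1 (squares) libraries, 1 each, by subunit group. Vehicle and Osm points nearly coincide for most subunits, the TGF-beta1 points of the core and the 19S particle lie to the right (medians 38.5 and 41.0 FPKM against 29.6 and 31.2 FPKM with vehicle), and those of Psmb8, Psmb9 and Psmb10 to the left.

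Of 17 measured genes whose proteins work with the proteasome but carry other names, 6 (35.3%) were called higher with TGF-beta1 and none lower, against 18.0% and 17.7% of all genes tested. Their median log2 ratio was 0.17, beside 0.34 for the Psm genes, and that difference was not tested. Rad23b, a shuttle that brings ubiquitinated proteins to the 19S particle, was at 211.4, 219.5 and 329.7 CPM with vehicle, Osm and TGF-beta1, 1.56-fold above vehicle with TGF-beta1 (1.498 to 1.62). The shuttle gene Ubqln1 was 1.33-fold above vehicle (1.26 to 1.40) and the deubiquitinase gene Uchl5 1.38-fold (1.14 to 1.68). Pomp, the maturation factor of the beta ring, was at 62.8, 62.4 and 66.2 CPM, a ratio of 1.05 (0.972 to 1.14). Ecpas, a proteasome adaptor, was at 157.6, 156.5 and 181.3 CPM and was not called. With Osm none of the 17 was called, where 4.92% of all genes tested were called higher and 4.67% lower. Ubqln2 (1.13-fold, 1.04 to 1.22) and Uchl5 (1.17-fold, 0.954 to 1.43) had the largest ratios.

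Among 17 regulators of proteasome genes and of their activation, 5 (29.4%) were called higher with TGF-beta1 and 2 (11.8%) lower, against 18.0% and 17.7% of all genes tested, with a median of 0.09. Nfe2l1 itself was at 660.0, 652.4 and 723.9 CPM, 1.10-fold above vehicle with TGF-beta1 (1.07 to 1.12) and short of the call. Vcp, the segregase that extracts Nfe2l1 and other proteins from the endoplasmic reticulum, was at 529.5, 597.0 and 764.7 CPM, 1.44-fold above vehicle (1.41 to 1.48). Mafk, a small Maf partner of Nfe2l1, was 1.30-fold above vehicle (1.21 to 1.40). Ddi2, the protease that cuts Nfe2l1 into its active form, was at 98.0, 101.9 and 78.6 CPM, 1.25-fold lower (1.16 to 1.34). The RNA of these genes was therefore not all in 1 direction, and whether Nfe2l1 activity differed was not tested. With Osm none of the 17 was called, where 4.92% of all genes tested were called higher and 4.67% lower. The largest ratios were Hsf1, 1.15-fold lower (1.02 to 1.29), and Nfyc, 1.15-fold higher (1.01 to 1.31).

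Interferon signalling and peptide-loading genes, the usual company of the immune proteasome, were mostly lower with TGF-beta1. Of 19 measured, 14 (73.7%) were called lower and 1 (5.26%) higher, against 17.7% and 18.0% of all genes tested, with a median of -0.39. Nlrc5, the activator of MHC class I and immune proteasome genes, was at 5.49, 7.38 and 2.60 CPM, 2.11-fold lower (1.48 to 3.04). Irf7 was 1.91-fold lower (1.40 to 2.63) and Irf1, which drives Psmb9 and Tap1 under interferon, was at 44.7, 38.9 and 29.1 CPM, 1.53-fold lower (1.37 to 1.71). In all of these the TGF-beta1 library was the lowest of the 3. Jak1 was 1.40-fold lower (1.36 to 1.44) and Tap1 1.31-fold lower (1.11 to 1.54). The gene called higher was Calr, an endoplasmic reticulum chaperone with other clients too (1.28-fold, 1.26 to 1.30). With Osm 1 of the 19 (5.26%) was called higher, near the 4.92% of all genes tested, and none lower, against 4.67%. It was Nlrc5, 1.34-fold higher (1.03 to 1.76) on 101 counts with vehicle and 128 with Osm, while Irf1 was 1.15-fold lower (1.04 to 1.27).

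**Figure D4:**
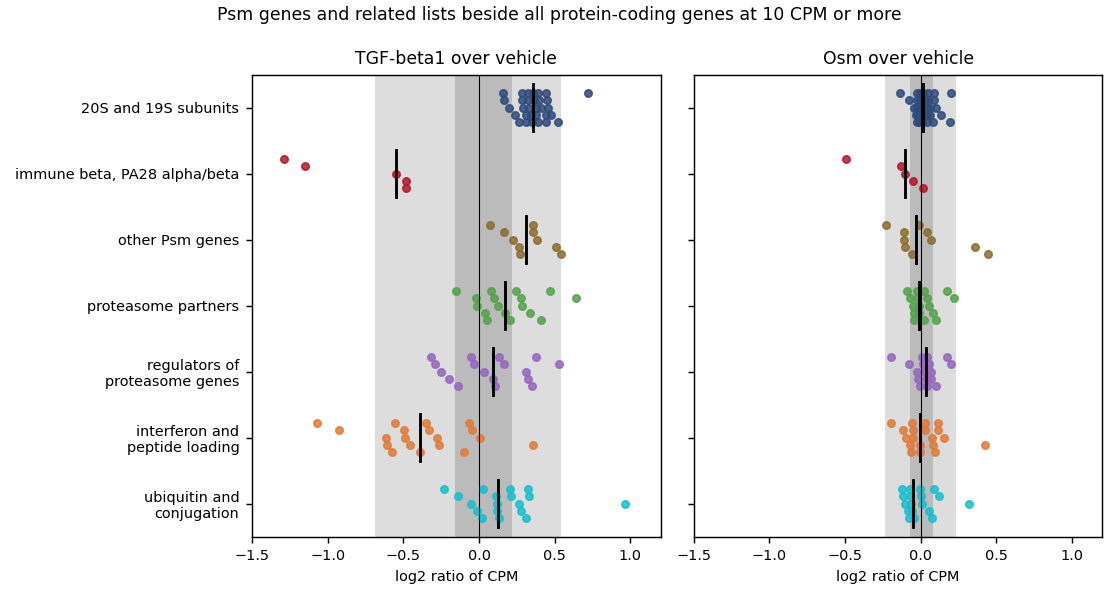
Log2 ratio of CPM, TGF-beta1 over vehicle (left) and Osm over vehicle (right), of Psm genes in 3 sets and of 4 related gene lists; each point is a gene and each black line a median. The dark and light bands hold the central 50% and 90% of protein-coding genes at 10 CPM or more. With TGF-beta1 the median of the 20S and 19S subunits is 0.35 and that of the interferon and peptide-loading genes -0.39.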

How the data were processed

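Per the labels' protocols, messenger RNA was captured on poly-T beads, fragmented and reverse transcribed from random primers. Stranded and unstranded library types are both described and the one made is not named. The authors deposited whole-number read counts per gene and FPKM values, which equal the counts over gene length and a library size from DESeq2 size factors (within 0.1% for 100% of genes with at least 10 counts). CASAVA, HISAT, HISAT2 and TopHat2 and the build mm39 are listed in the submitters' processing notes, and the read counter is not given.

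Counts were scaled with TMM factors (1.00, 1.00 and 0.995 for vehicle, Osm and TGF-beta1) from edgeR 4.0.16 in R 4.3.3. The 13712 genes that reached 1 CPM in any library were compared. Log2 ratios used a prior count of 0.5, and intervals are exact conditional binomial. Python 3.11.15 with scipy 1.17.1 did the rest. The calculation was tried on simulated counts with counting error only, which says nothing about differences between cultures. Windows of 50 bases from GENCODE M21 transcripts gave the sequence shared with other genes.

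The members and the lists were chosen with earlier results of these data known, and the interferon-linked set of 5 genes was put together after their values were seen. Named genes were all beta-ring, activator and chaperone members, the 5 highest and 5 lowest ratios per comparison and, from each of 4 lists, the 2 largest ratios at 5 CPM or more, the 2 highest levels and a few set genes, not all of which are reported here. Of the 18 partner symbols 17 were found. Alternatives were DESeq2 1.42.0 size factors, library totals, upper-quartile factors, FPKM ratios, other prior counts, filters and folds.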

Additional observations from a re-analysis of the deposited data

How the results depend on the processing

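Of 828 ratios of single Psm genes under the other scalings, FPKM ratios, the prior count of 2 and the added copies, 825 stayed inside their counting interval. The 3 outside were Psme2 with near-identical copies added, where its log2 ratio for Osm over vehicle turned from -0.50 to 0.021. The median log2 ratio of the Psm genes lay between 0.32 and 0.35 for TGF-beta1 over vehicle and between -0.00 and 0.01 for Osm, while the scalings kept the median of all genes tested between -0.01 and 0.01. The counts of called genes turn on the fold. At 1.5-fold, Psm genes called higher and lower were 1 and 2 with TGF-beta1 (the 1 in the core, the 2 immune), 0 and 0 with Osm, and 2 and 0 for Osm over TGF-beta1. The share of all genes tested was not computed at 1.5-fold, so these counts cannot be set against it. At 2-fold the counts of Psm genes were 0 and 2, 0 and 0, and 2 and 0, with the shares of all genes given above. With copies added, chosen after seeing the data, 0 were lower with Osm. A second check, also chosen after seeing the data, left out 8 Psm genes with an overlapping gene at 10% or more of their lowest level. It left 1 lower with TGF-beta1 (Psme2) and 0 higher with Osm over TGF-beta1, because Psmb8, Psmb9, Psmb10 and Psme1 were among the 8. The call of Psme2 was itself lost with its copy added. No paired analysis was possible because each condition has 1 library. Depth limits Psmb9, with 25 to 56 counts per library, and Psmg3 and Psmg4.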

Other observations

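Of 18 genes for ubiquitin itself and the enzymes that attach it, 6 (33.3%) were called higher with TGF-beta1 and none lower, against 18.0% and 17.7% of all genes tested. Their median log2 ratio was 0.13. Ubb, a polyubiquitin gene, was at 396.4, 365.9 and 401.2 CPM with vehicle, Osm and TGF-beta1, a ratio of 1.01 for TGF-beta1 over vehicle (0.980 to 1.05). Uba1, the main ubiquitin-activating enzyme, was at 409.3, 424.5 and 507.8 CPM, 1.24-fold above vehicle with TGF-beta1 (1.203 to 1.28). Among the conjugating enzymes, Ube2g2, which serves degradation at the endoplasmic reticulum, was 1.26-fold above vehicle (1.17 to 1.35). Ube2s and Ube2c, which work with the anaphase-promoting complex in mitosis, were 1.25-fold (1.14 to 1.38) and 1.96-fold (1.38 to 2.80) above vehicle, the latter at 2.77, 3.46 and 5.43 CPM. With Osm none of the 18 was called, where 4.92% of all genes tested were called higher and 4.67% lower. Uba6 was 1.09-fold lower (1.01 to 1.19) and Ube2d2a 1.09-fold higher (1.00 to 1.18).

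The 48 Psm genes lie on 16 chromosomes, with 8 on chromosome 11. Of the 5 genes called lower with TGF-beta1, 4 lie in neighbouring pairs, Psmb9 with Psmb8 and Psme1 with Psme2. The Psmb9 value is uncertain, and the Psme2 call was not kept with its copy added. The other neighbouring pair of Psm genes that lie close together is Psmb5 and Psmb11, 3410 bases apart on chromosome 14, of which Psmb11 had no count.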
